A study of Homo sapiens with 18 samples.

Results

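The axon guidance ligands and receptors described here are 69 of the 58735 genes in the deposited count table of a neuroblastoma cell line. They were taken by symbol and not by any measured value: every protein-coding row whose GENCODE 29 symbol begins with SEMA, PLXN, EPHA, EPHB, EFNA, EFNB, SLIT or ROBO, without the SLITRK genes, together with NRP1, NRP2, NTN1, NTN3, NTN4, DCC, NEO1 and UNC5A to UNC5D. The 69 fall into 34 ligands and 35 receptors: 20 semaphorins with 9 plexins and 2 neuropilins, 8 ephrins with 14 Eph receptors, 3 Slits with 4 Robos, and 9 netrins and netrin receptors. Of these, 63 had enough reads to be tested. EPHB1, EPHA3, EPHA4, EPHA5, EPHA7 and SEMA3E did not.

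Axon guidance molecules steer growing neurites by attraction or repulsion and are also used in cell sorting, synapse formation and vessel growth. Semaphorins act through plexins, and the secreted class 3 members through plexins joined to neuropilins. Ephrins and Eph receptors are both fixed in membranes and signal between touching cells, Slits act mostly as repellents through Robo receptors, and netrins attract through DCC and repel through UNC5 receptors.

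SH-SY5Y, a human cell line grown from a neuroblastoma, becomes neuron-like when given retinoic acid. All 18 libraries came from wild type cells of this line kept for 7 days in 10 µM all-trans retinoic acid and then exposed for 15 min to water or to 1 of 5 compounds before total RNA was sequenced without strand information. There were 3 libraries in each of 6 groups. Control received water. The Morphine group received 193 nM and the Metamorphine group 169 nM of the compound. A dose of 200 nM was used for TRV130, for Beta-endorphin and for Naloxone. Morphine, TRV130 and beta-endorphin activate opioid receptors and naloxone blocks them, and the labels do not describe metamorphine further. Nothing in the labels ties the 3 libraries of a group to separate cultures, so the p-values below reflect library-to-library spread, part of which may be technical.

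Library names end in 1 of 3 numeric codes whose meaning the labels do not state, so what differed between codes cannot be told apart from the code itself. They are called A, B and C here, A being the code of Control 1, B that of Control 2 and C that of Control 3. Code A held 7 libraries, code B held 6 and code C held 5. The TRV130 group had 2 libraries of code A, whose labels carry an extra leading digit, with the third library in code B and so none in code C. In every other group, libraries 1, 2 and 3 had codes A, B and C. Totals ran from 21211449 to 33123855 counts, and the mitochondrial share had medians of 10.1%, 10.4% and 5.81% in codes A, B and C. All 15 neuronal and noradrenergic markers had a mean of at least 1 CPM (the usual depth-scaled count, here with TMM scaling), TUBB3 at 651 and DBH at 1710 among them. Control 1 stood apart from the other libraries in markers of other cell types: the summed CPM of 8 immune markers was 17.9 there and 4.56 to 10.7 elsewhere, and that of 8 epithelial markers 22.2 against 4.32 to 17.3. The 6 endothelial markers summed to 7.13 there and at most 3.10 elsewhere, and the 10 Schwann and glial markers to 15.7 and at most 11.6. In bulk RNA, fewer cells of a type and less RNA per cell cannot be told apart.

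Promoter sequences of 59 of the 69 genes were found in RefSeq (GRCh38.p14, 250 bases before to 50 after the gene start used there). That start is not always the start of the gene as placed by GENCODE. The PLXNB2 gene spans chr22:50274979-50307627 in GENCODE, so its window given below lies inside the gene. The windows of PLXNA4, PLXNC1 and ROBO2, among others, also lie inside their GENCODE genes. Those of EFNB3, EPHA10, NRP1, NTN1, NTN3, SEMA3A, SEMA6A, SEMA6B, UNC5B and UNC5D were not used here. The 5 shown belong to 3 abundant receptors that were lower in code C than in code B, and, for contrast, to 2 abundant ephrins that did not pass that test. Each reads 5′ to 3′ on the gene's strand, and capitals mark the GC box GGGCGG on either strand. PLXNB2 lies at chr22:50301620-50301919 on the minus strand, PLXNB1 at chr3:48430037-48430336 on the minus strand, UNC5C at chr4:95548924-95549223 on the minus strand, EFNB2 at chr13:106535613-106535912 on the minus strand and EFNA2 at chr19:1285623-1285922 on the plus strand.
PLXNB2: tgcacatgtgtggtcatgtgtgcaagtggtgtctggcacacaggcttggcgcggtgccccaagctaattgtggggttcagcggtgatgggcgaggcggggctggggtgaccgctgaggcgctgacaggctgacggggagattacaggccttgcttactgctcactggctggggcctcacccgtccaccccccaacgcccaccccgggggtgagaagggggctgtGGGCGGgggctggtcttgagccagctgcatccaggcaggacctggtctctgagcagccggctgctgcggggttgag
PLXNB1: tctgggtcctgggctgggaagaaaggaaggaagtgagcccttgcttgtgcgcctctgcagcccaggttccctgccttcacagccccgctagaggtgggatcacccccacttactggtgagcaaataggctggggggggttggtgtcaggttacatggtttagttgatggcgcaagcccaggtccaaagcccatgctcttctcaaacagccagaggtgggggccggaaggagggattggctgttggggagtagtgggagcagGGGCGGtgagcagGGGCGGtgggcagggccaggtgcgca
UNC5C: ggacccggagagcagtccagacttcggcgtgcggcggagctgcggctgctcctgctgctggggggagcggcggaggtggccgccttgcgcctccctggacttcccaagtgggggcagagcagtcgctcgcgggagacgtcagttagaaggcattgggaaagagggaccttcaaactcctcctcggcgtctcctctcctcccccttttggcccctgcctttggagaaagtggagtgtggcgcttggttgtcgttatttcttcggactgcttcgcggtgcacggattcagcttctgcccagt
EFNB2: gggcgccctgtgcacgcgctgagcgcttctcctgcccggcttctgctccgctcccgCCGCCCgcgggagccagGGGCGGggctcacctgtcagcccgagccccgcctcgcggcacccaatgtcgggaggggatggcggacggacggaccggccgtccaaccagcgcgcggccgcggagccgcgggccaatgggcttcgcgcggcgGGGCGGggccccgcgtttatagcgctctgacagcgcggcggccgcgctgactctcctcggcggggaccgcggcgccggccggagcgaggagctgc
EFNA2: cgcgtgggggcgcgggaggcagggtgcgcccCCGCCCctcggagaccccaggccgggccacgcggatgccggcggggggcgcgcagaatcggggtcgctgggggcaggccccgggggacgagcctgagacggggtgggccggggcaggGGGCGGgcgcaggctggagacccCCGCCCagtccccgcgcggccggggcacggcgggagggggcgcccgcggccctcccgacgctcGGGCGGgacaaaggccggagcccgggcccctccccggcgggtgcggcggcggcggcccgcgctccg

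The GC box, a binding motif of the SP family of factors, was found on either strand in 45 of the 59 promoters (76.3%) and in 44.6% of all 27305 promoters of the same length. All 7 ephrin promoters and 8 of 9 plexin promoters held it. The windows counted include some inside the GENCODE gene, such as those of PLXNB2, PLXNA4 and PLXNC1. How far the motif counts depend on the start used was not tested. Of the promoters of members that were lower in code C than in code B, 26 of 34 held it (76.5%), close to the share over all members. The other motifs were likewise searched on both strands. TATAAA was found in 1 of the 59 (1.69%), the EFNB2 promoter, which holds its reverse complement TTTATA, against 11.95% of all promoters, and CACGTG in 6.78% against 7.43%. AGGTCA, the half-site that retinoic acid receptors and other nuclear receptors can bind, was in 11.9% of the members' promoters and 13.9% of all. None of these motifs contains another. The members' promoters had a median GC content of 65.7% and 22 CpG, against 58.3% and 14 over all. All members are protein-coding, while the 27305 promoters outnumber the 19951 protein-coding genes of the count table. The background is thus a wider set of genes, and no share over protein-coding genes alone was counted.

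The guidance genes spanned a wide range of levels, with a netrin receptor, ephrins and plexins at the top. Levels are compared between genes as RPKM (counts per kilobase of merged exon, scaled like CPM), as a mean ± SD over the 18 libraries. UNC5B, a netrin receptor that mediates repulsion and is linked to cell survival, was highest at 36.5 ± 13.5 RPKM (SD, n = 18). Its gene lies at chr10:71212570-71302864 on the plus strand (GENCODE 29, GRCh38). It was followed by the transmembrane ephrin EFNB2 at 33.2 ± 6.75, the plexin PLXNB2 at 28.1 ± 7.10, the ephrin EFNB3 at 27.5 ± 3.42 and the membrane-anchored ephrin EFNA2 at 20.8 ± 2.57 RPKM. PLXNB1 (20.0 ± 6.62 RPKM), the receptor of SEMA4D, and the repellent SLIT3 (19.9 ± 4.67 RPKM) came next. SEMA6C (18.9 ± 3.70 RPKM) and SEMA4C (15.5 ± 3.06 RPKM), both membrane-bound, led the semaphorins. Between neighbours among the 26 highest members, the gap from EFNB3 to EFNA2 was the only one larger than the larger of the SDs of the pair. EFNB3 lay above EFNA2 in 16 of 18 libraries and SEMA6C above SEMA4C in 17, and the other neighbours kept their order in 7 to 14.

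In all, 29 members had a mean of at least 5 RPKM, 17 lay from 1 to 5, and 23 were under 1. All 8 ephrins were at or above 2.29 RPKM, while the Eph receptors ran from 0.00184 for EPHA3 to 7.30 ± 2.71 for EPHA8 and 7.03 ± 1.89 for EPHB2. EPHA3 had 5 reads in all 18 libraries together. Plexins ran from PLXND1 at 0.321 RPKM to PLXNB2. The neuropilins were low, NRP1 at 0.224 ± 0.0789 and NRP2 at 0.187 ± 0.0534 RPKM, although these coreceptors of class 3 semaphorins stood beside SEMA3C at 7.54 ± 1.75 and PLXNA3 at 9.12 ± 3.47 RPKM. Of the Robos, ROBO1 (4.56 ± 1.24 RPKM) and ROBO3 (3.47 ± 1.12 RPKM) were highest. SLIT2 reached 4.25 ± 0.753 RPKM. The classical netrin pair was at the low end: DCC, the attractive netrin receptor, had a mean of 0.0814 RPKM and NTN1 of 0.0569 RPKM, against 5.92 ± 3.12 for NTN3, another netrin, and 13.1 ± 3.69 for UNC5C.

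**Figure D1:**
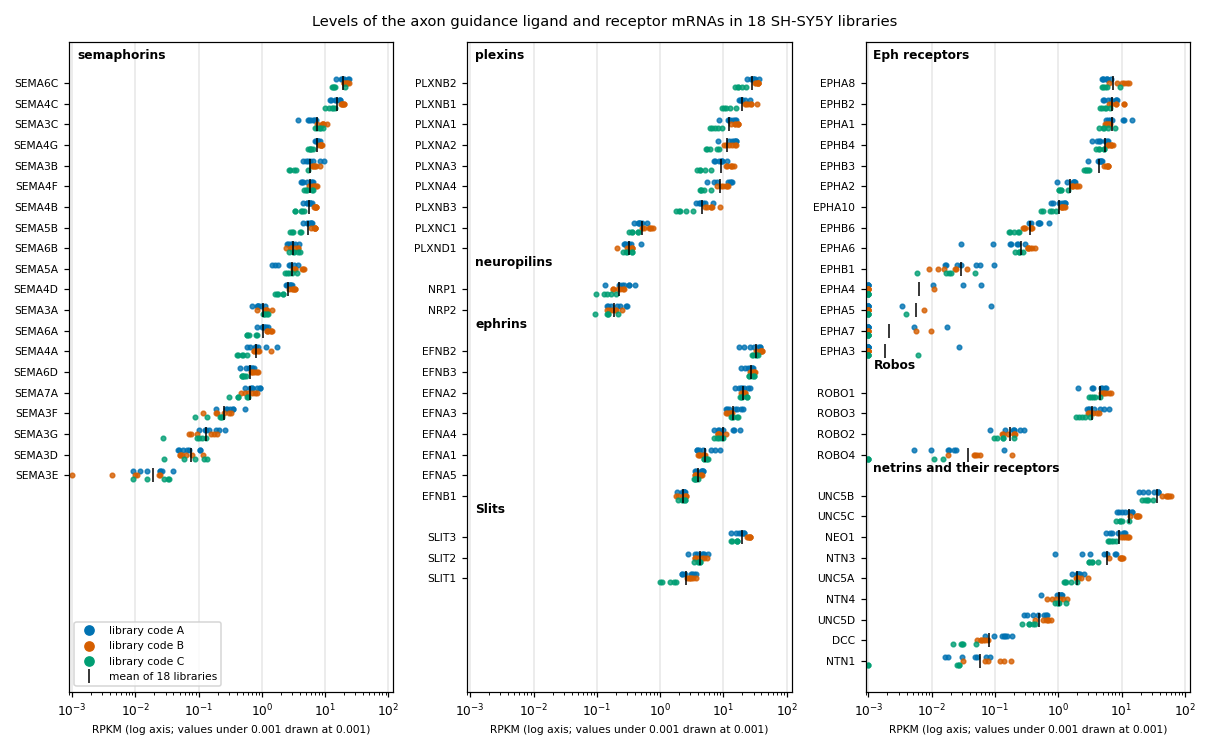
Levels of the 69 guidance genes by family, in RPKM on a log axis, with 1 point per library coloured by library code and a bar at the mean of 18 libraries. UNC5B, EFNB2 and PLXNB2 are highest, and the points of code C lie to the left for the A and B plexins while the ephrins' codes overlap.

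The level of most guidance genes differed between the library codes, and the sums over receptors and over ligands both had their lowest medians in code C. The summed RPKM of the 35 receptors was 162 to 219 in code A (median 199), 225 to 277 in code B (median 261) and 118 to 155 in code C (median 129.7), so the 3 codes did not overlap. The summed ephrins overlapped between codes, with medians of 117, 121 and 115 RPKM. The sum over 9 plexins had medians of 107, 125 and 52.6 RPKM in codes A, B and C. Single members were tested with edgeR's quasi-likelihood test with the treatment group in the model, adjusted by Benjamini-Hochberg over 23231 genes, and "passed" means an adjusted p under 0.05.

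For code C against code B, 41 of the 63 members passed (54.8% of all tested genes did). The direction was uneven: 40 members were lower in code C, where 27.8% of all genes were, and 1 was higher, where 26.9% of all genes were. The members' median log2 fold change was -0.63 and that of all genes -0.04. For code C against code A, 33 members passed (33.2% of all genes), 31 of them lower (17.1%) and 2 higher (16.1%), and the medians were -0.43 for members and -0.02 for all genes. For code B against code A, 25 passed (26.9% of all genes), 23 higher (11.5%) and 2 lower (15.5%), with medians of 0.21 and 0.02. The last count fell when certain libraries were left out: it was 16 without Control 2, 10 without TRV130 3 and 13 without Beta-endorphin 1, and 9 without the 3 TRV130 libraries. Without Control 1, Naloxone 1 and Naloxone 2, which stood apart in an earlier analysis of these data, it was 10, and that for code C against code A was 19. The shares of all genes that passed in these fits are not given here, so the falls are not read as particular to the members. For any difference among the 3 codes, 47 of 63 members passed (57.8% of all genes). The 3 comparisons share libraries, and no test of the list as a whole or of differences between families was made.

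The libraries themselves show the same order. Every library of code C lay below every library of code B for 34 of 63 members (20.3% of all genes), and above for 0 (22.4%). Code C lay wholly below code A for 11 members (6.16%) and wholly above for 0 (7.43%), and code B lay wholly above code A for 8 (3.3%) and wholly below for 0 (4.92%). Over both comparisons, 28 members passed as lower in code C than in each other code, and 19 passed as higher in code B than in each other code. The 11 members that passed in all 3 comparisons were the receptors PLXNA3, PLXNB3, EPHB3, EPHB6, NEO1, UNC5D and DCC, and the ligands SEMA4B, SEMA5B, SEMA6A and SLIT3. By contrast, 15 members passed in none of the 3, 5 of them ephrins (EFNA1, EFNA2, EFNA4, EFNB1 and EFNB3). The share of all genes that passed in these combinations of comparisons was not counted, so the combinations are not read as particular to the members.

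**Figure D2:**
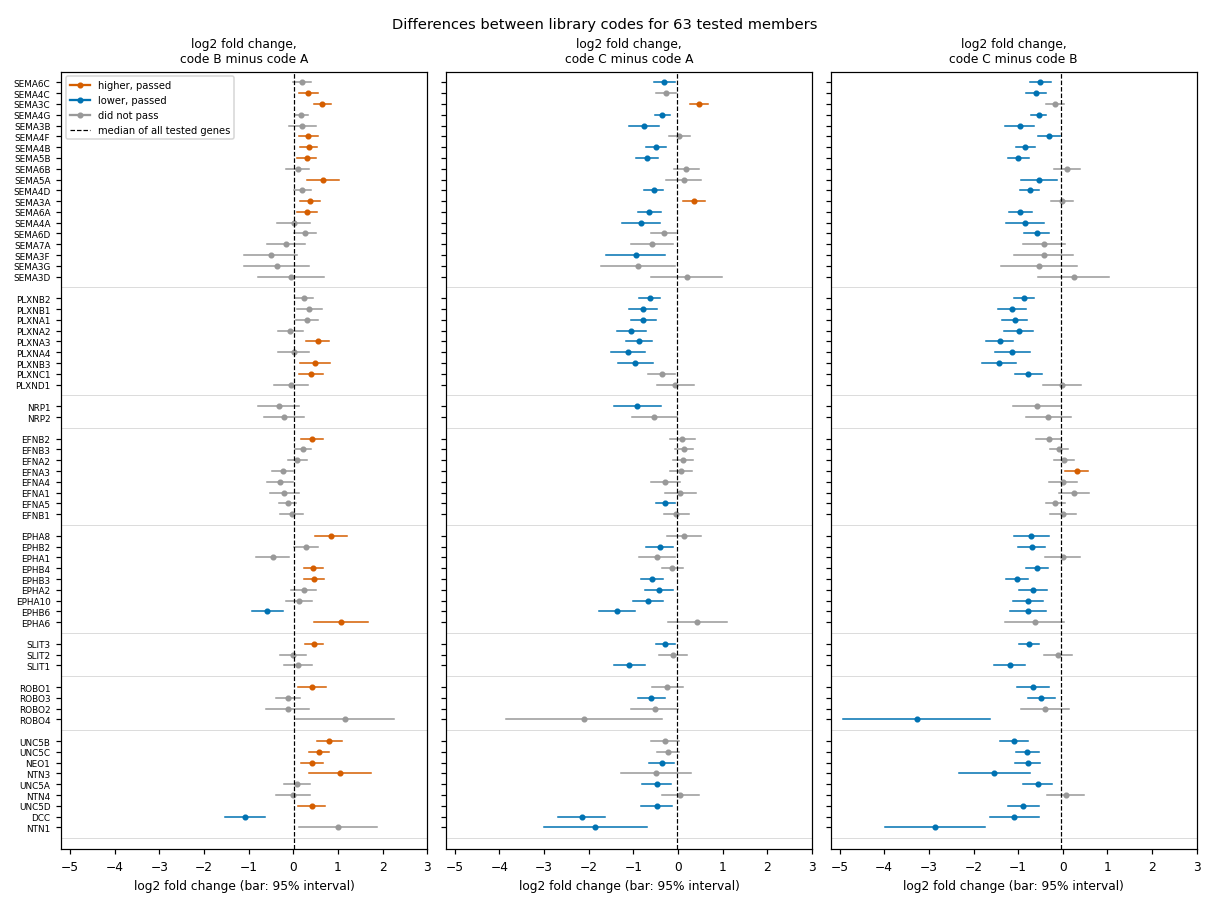
Log2 fold change of each of the 63 tested members between library codes, with the 95% interval, by family from semaphorins at the top to netrins and their receptors at the bottom; the dashed line is the median of all tested genes. In the panel of code C against code B, 40 members pass as lower and 1 as higher, and the 8 ephrins stay near 0.

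Among the semaphorins, 12 of 19 passed as lower in code C than in code B and none passed as higher, with a median of -0.54. All 6 class 4 members (SEMA4A to SEMA4G) and both class 5 members were among them, but only 1 of 6 class 3 members, SEMA3B (-0.97). SEMA5B, a membrane protein with thrombospondin repeats, read 37.6 to 52.2 CPM in code A (median 48.4) and 51.2 to 58.9 in code B (median 58.4). In code C it was 25.1 CPM in Control 3, 35.1 in Morphine 3, 23.3 in Metamorphine 3, 33.6 in Beta-endorphin 3 and 26.6 in Naloxone 3. All 5 lay below every library of the other codes, and the log2 fold change against code B was -0.99 ± 0.11 (SE; edgeR, adjusted p = 1.2e-05). The abundant SEMA4C and SEMA6C had log2 fold changes of -0.61 ± 0.11 and -0.50 ± 0.11 in the same comparison.

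The secreted class 3 members SEMA3C and SEMA3A went another way. SEMA3C ran from 23.4 to 44.3 CPM in code A (median 37.4) and from 46.0 to 67.0 in code B (median 57.4). In code C it was 42.98, 46.6, 52.3, 52.2 and 58.0 CPM, in the order Control, Morphine, Metamorphine, Beta-endorphin and Naloxone, which holds for the values of code C below. Code B lay wholly above code A, and code C overlapped both. SEMA3C and SEMA3A were the only members that passed as higher in code C than in code A, by 0.47 ± 0.10 and 0.35 ± 0.11 on the log2 scale (SE; edgeR, adjusted p = 0.00275 and 0.0281). The SEMA3A call was lost without any 1 of Control 3, Beta-endorphin 3, Naloxone 1 or Naloxone 3 (adjusted p 0.0599 to 0.104).

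Of the semaphorin receptors, 8 of 9 plexins passed as lower in code C than in code B and 7 of 9 as lower than in code A, with medians of -1.08 and -0.78. All 4 A plexins and all 3 B plexins passed both. PLXND1 was the exception, with log2 fold changes of -0.01 and -0.06. PLXNA3, at chrX:154458281-154477779 on the plus strand, transduces class 3 semaphorin signals together with neuropilins. It read 84.7 to 136 CPM in code A (median 107) and 131 to 172 in code B (median 153). In code C it was 44.7, 75.5, 49.3, 60.5 and 50.3 CPM. All 5 of these lay under the lowest library of either other code. The log2 fold change was -1.42 ± 0.14 against code B and -0.88 ± 0.14 against code A (SE; edgeR, adjusted p = 8.67e-06 and 0.000555).

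PLXNB2, a receptor of SEMA4C among others, read 174 to 263 CPM in code A (median 214) and 228 to 259 in code B (median 256), and 123, 165, 111, 145 and 123 CPM in code C. Here too the libraries of code C lay below all others, by -0.87 ± 0.11 against code B. PLXNB1 differed by -1.14 ± 0.15 and PLXNB3 by -1.43 ± 0.18 in that comparison, although 1432 bases of PLXNB3 exons overlap SRPK3 on the same strand and reads there cannot be assigned. In each of 24 settings of the analysis, 8 plexins passed as lower in code C than in code B. NRP1 passed as lower in code C than in code A (-0.91 ± 0.25, edgeR adjusted p = 0.0115). NRP2 was -0.53 ± 0.24 there and did not pass (edgeR adjusted p = 0.097).

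The ephrins and the Eph receptors had different counts of calls, without a test between the families. Genes of like length are set beside the short ephrins below. Of 8 ephrins, 1 passed as higher in code C than in code B and none as lower, with a median of 0.00. EFNA2 was 14.7 to 24.6 CPM in code A (median 19.0) and 18.3 to 21.2 in code B (median 20.2), and 22.2, 22.1, 19.0, 17.96 and 17.6 in code C. The 3 codes overlapped throughout, and the log2 fold change of code C against code B was 0.02, with a 95% interval of -0.20 to 0.25. EFNB2 was 87.4 to 190.0 CPM in code A (median 155), 165 to 208 in code B (median 199) and 142, 149, 165, 179.8 and 164 in code C. It was higher in code B than in code A by 0.42 ± 0.12 (edgeR, adjusted p = 0.0199), and -0.32 ± 0.13 in code C against code B did not pass (adjusted p = 0.0548). EFNA3 passed as higher (0.31 ± 0.12, edgeR adjusted p = 0.039), and that call was lost in 5 of the 18 fits that each left out 1 library: Control 2, Morphine 3, Metamorphine 3, TRV130 3 and Beta-endorphin 3 (adjusted p 0.063 to 0.105). A readthrough gene on the same strand shares 853 exon bases with EFNA3 and 189 with EFNA4, and an antisense gene shares 1313 with EFNB2, so part of their reads is uncertain.

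Of 9 tested Eph receptors, tyrosine kinases that bind the ephrins, 7 passed as lower in code C than in code B. All 4 EphB receptors were among them, and the median was -0.70. EPHB3 read 13.3 to 21.9 CPM in code A (median 20.6) and 23.6 to 27.8 in code B (median 27.0), and 11.4, 12.6, 13.3, 14.1 and 12.3 CPM in code C. Code B lay wholly above the other codes, and Beta-endorphin 1 at 13.3 put code A in the range of code C. The log2 fold change was -1.03 ± 0.12 (SE; edgeR, adjusted p = 1.18e-05). EPHA8 was higher in code B than in code A by 0.84 ± 0.17 and EPHA6 by 1.06 ± 0.28 (edgeR, adjusted p = 0.00327 and 0.0136). The EPHA6 call was lost without TRV130 3 (edgeR adjusted p = 0.0595).

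EPHB6, an Eph receptor without kinase activity, and DCC were the 2 members that passed in all 3 comparisons with the order A, B, C from high to low. EPHB6 read 1.84 to 3.75 CPM in code A (median 2.62), 1.47 to 2.08 in code B (median 1.76) and 0.908, 1.08, 0.900, 1.29 and 1.22 in code C. The lowest libraries of code A overlapped code B and none overlapped code C. The log2 fold changes were -0.58 ± 0.16 for code B against code A (adjusted p = 0.0177, and 0.0527 without Control 1) and -1.36 ± 0.19 for code C against code A (edgeR, adjusted p = 0.000254).

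SLIT3 and SLIT1 passed as lower in code C and SLIT2 did not. SLIT3 read 188 to 302 CPM in code A (median 275) and 337 to 377 in code B (median 369), and 192, 232, 231, 238 and 199 CPM in code C. Code B lay above all other libraries, by 0.47 ± 0.09 over code A, and code C differed from code B by -0.75 ± 0.11 (SE; edgeR, adjusted p = 0.00361 and 3.46e-05). SLIT1 was -1.19 ± 0.17 in the second comparison and SLIT2 -0.11 ± 0.15. Of their receptors, ROBO1 differed by -0.67 ± 0.17 and ROBO3, which acts in commissural axons, by -0.48 ± 0.14 between codes C and B, and both passed. ROBO4, known from endothelial cells, had the largest fitted fold change (-3.27 ± 0.78) on few reads: 0, 2, 0, 0 and 3 in code C and 4 to 29 in code B. Fitted folds at such counts depend on the prior count, and 1192 bases of ROBO4 exons overlap antisense genes. The 6 endothelial markers had means under 1 CPM, and their summed CPM reached 7.13 in code A (in Control 1) and was 1.34 to 3.01 in code B and 0.710 to 1.82 in code C; their part in the ROBO4 difference was not tested.

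All 4 UNC5 receptors passed as lower in code C than in code B. UNC5B read 131 to 260.5 CPM in code A (median 222), 294 to 416 in code B (median 365) and 145, 174, 161, 213 and 182 in code C. Every library of code B lay above all others, and codes A and C overlapped. The log2 fold change was 0.81 ± 0.13 for code B against code A and -1.10 ± 0.15 for code C against code B (SE; edgeR, adjusted p = 0.00118 and 2.66e-05). UNC5C followed with 0.57 ± 0.11 and -0.80 ± 0.12, and NEO1, a DCC relative that binds netrins and repulsive guidance molecules, with 0.42 ± 0.12 and -0.79 ± 0.14.

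DCC went the other way between codes A and B. It read 0.920 to 2.44 CPM in code A (median 1.81), 0.675 to 1.00 in code B (median 0.830) and 0.389, 0.385, 0.284, 0.404 and 0.663 in code C. Code C lay below all other libraries, and the ranges of codes A and B overlapped. The log2 fold change was -1.08 ± 0.21 for code B and -2.16 ± 0.25 for code C, each against code A (SE; edgeR, adjusted p = 0.00321 and 8.35e-05). Of the ligands, NTN3 was 1.76 to 16.0 CPM in code A (median 10.5), 12.6 to 20.6 in code B (median 19.6) and 6.66, 5.97, 6.15, 8.51 and 6.81 in code C. It passed as higher in code B than in code A (1.04 ± 0.33, edgeR adjusted p = 0.0302), and this was lost without any 1 of 6 libraries: Control 2, the 3 TRV130 libraries, Beta-endorphin 1 and Naloxone 2 (adjusted p 0.0527 to 0.165). Against code B code C differed by -1.54 ± 0.37 (edgeR adjusted p = 0.00292). NTN1 had 0 to 5 reads in code C and 6 to 26 in code B, and passed as lower on those counts (edgeR adjusted p = 0.000292).

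Exon length and GC content moved with these differences across all genes. For 14969 tested protein-coding genes, the log2 fold change of code C against code B had a Pearson r of -0.26 with log2 exon length, and one of -0.27 with GC content over the 14955 that had a GC value. Over the 63 members r was -0.30 and -0.21. These are descriptions across genes of the same libraries, and genes are not independent replicates. The ephrins were short, with a median merged exon length of 2880.5 bases, and the receptors long, with 8942.5 bases (plexins 9887), against 4871 for all protein-coding genes tested.

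Values are also given by bins of length, which do not match GC content. Among genes of 6 to 8 kb, the median log2 fold change was -0.84 for 13 members and -0.06 for 2493 protein-coding genes. Among genes of at least 10 kb it was -0.78 for 16 members and -0.34 for 1702 genes, and under 2 kb, where 3 of the 4 members are ephrins, 0.02 against 0.52. From 2 to 4 kb, where the 4 members are EFNA1, EFNB1, EFNB3 and SEMA7A, it was -0.04 against 0.27. The part of length, GC content and the lower mitochondrial share of code C in the differences was not tested. Mesenchymal markers moved too: their summed CPM was 315 to 364 in code C and 445 to 533 in code B, and of 8 tested, 4 passed as lower and 0 as higher. Among the 15 neuronal and noradrenergic markers, 8 passed as higher and 1 as lower in code C than in code B, where 26.9% and 27.8% of all genes did. The part of these markers was not tested either.

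**Figure D3:**
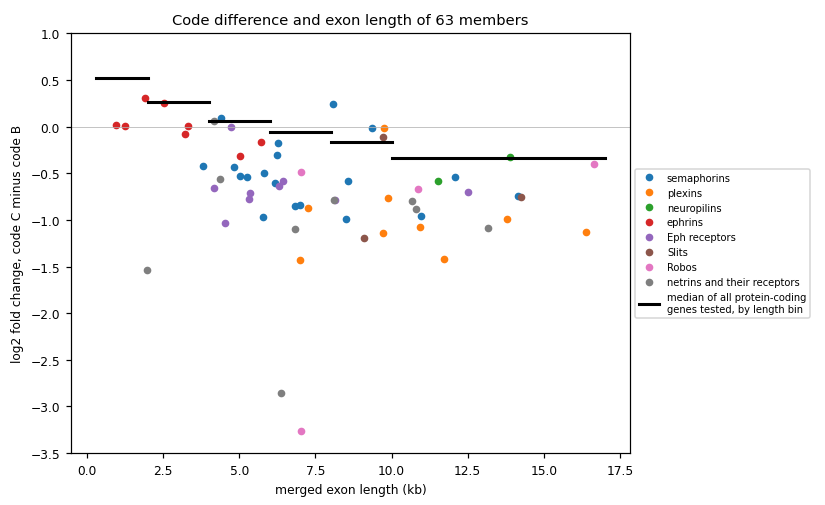
Log2 fold change of code C against code B for each of the 63 tested members by merged exon length in kb, coloured by family, with the median of all tested protein-coding genes in each length bin as a black line. The line falls from 0.52 under 2 kb to -0.34 at 10 kb and above, and most members longer than 4 kb lie under it.

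Other genes of the pathway came from 2 lists. Of 21 tested adhesion molecules and other cues, 12 passed as lower (57.1%, against 27.8% of all genes) and 2 as higher (9.52% against 26.9%) in code C than in code B, with a median of -0.59. The L1 family adhesion molecules NFASC and L1CAM had log2 fold changes of -1.20 ± 0.14 and -0.85 ± 0.10 and the glypican GPC1 one of -0.69 ± 0.09. Of 56 tested intracellular effectors, 16 passed as lower (28.6%) and 11 as higher (19.6%), near and under the shares of all genes, with a median of -0.15. MICAL3, of the flavin enzymes that act on actin, was at -1.01 ± 0.11 and the Slit-Robo GTPase-activating protein SRGAP1 at -0.82 ± 0.12, while the GTPase CDC42 was at 0.82 ± 0.10 and the adaptor NCK2 at 0.65 ± 0.09 (SE; all 7 passed in edgeR, the highest adjusted p being that of SRGAP1, 4.93e-05).

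No guidance gene passed the test in any comparison of a compound with water. With 3 libraries a group and edgeR's quasi-likelihood test, 0 of 63 members passed for Morphine, Metamorphine, TRV130, Beta-endorphin, Naloxone, the mean of the 5 or any difference among the 6 groups, and 0.0% of all 23231 genes did. At an unadjusted p under 0.05 there were 4 members for Morphine, 3 for Metamorphine, 0 for TRV130, 5 for Beta-endorphin, 2 for Naloxone, 6 for the mean of the 5 and 2 for any difference. The corresponding shares were 6.35%, 4.76%, 0%, 7.94%, 3.17%, 9.52% and 3.17% of the members, against 4.06%, 7.83%, 1.85%, 9.46%, 6.65%, 11.4% and 2.43% of all genes. DESeq2 likewise passed 0 members in each. Without Control 3, SEMA4A and ROBO4 passed for the mean of the 5 (-1.15 and -2.85). The number of all genes that passed in that fit is not given here. Without the filter on low counts EPHA5 passed for the mean, a gene with 23 reads in all, 19 of them in Control 1. How many of all genes passed without the filter is given at the end. All 5 comparisons share the 3 Control libraries. The library code was left out of this model, so the SEs and p-values against Control carry the spread between codes. edgeR's common spread was 0.309 in this model and 0.182 with the code added. With code as a block, 0 members passed as well.

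The members' median log2 fold change against Control was 0.13 for Morphine, 0.11 for Metamorphine, 0.16 for TRV130, 0.10 for Beta-endorphin and 0.11 for Naloxone. The medians of all tested genes ran from -0.04 to -0.02. Of 63 members, 44, 38, 44, 37 and 40 were above 0, and the shares of all genes above 0 are not given here. TRV130 had no library of code C, where 40 members passed as lower than in code B, and this model left the code out. Its median and count can therefore not be told apart from differences between codes. Set against the Control library of the same code, however, the share of members that were higher depended on the library. It ran from 26 of 63 in Morphine 2 (41.3%) to 50 of 63 in Beta-endorphin 3 (79.4%), and 3 of the 15 compound libraries had fewer than 30. Of all genes, 51.1% and 50.2% were higher in those 2 libraries, and 45.7% (Naloxone 2) to 53.6% (TRV130 1) over the 15.

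**Figure D4:**
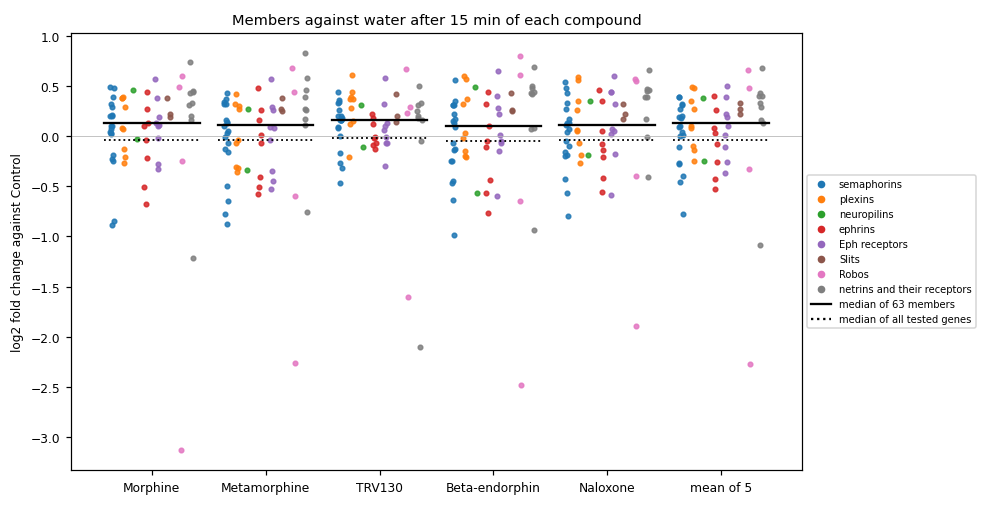
Log2 fold change of each tested member against Control for each of the 5 compounds and their mean, with 1 point per member coloured by family; the solid bar is the median of the 63 members and the dotted bar that of all tested genes. The solid bars lie at 0.10 to 0.16, the dotted ones just under 0, and the lowest points are ROBO4 and NTN1, which had few reads.

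EFNA4, a membrane-anchored ephrin at chr1:155063731-155069553 on the plus strand, had the smallest p among members lower with a compound in 4 of the 5 comparisons. It read 23.2, 14.1 and 12.4 CPM in Control, in the order of codes A, B and C, 10.4, 10.5 and 10.1 in Morphine, 10.8, 10.6 and 12.1 in Metamorphine, 9.14, 10.9 and 9.12 in Beta-endorphin and 12.6, 10.7 and 10.6 in Naloxone. TRV130 gave 18.8 and 18.2 CPM in its libraries of code A and 10.6 in that of code B. Morphine, Metamorphine and Beta-endorphin lay below all 3 Control libraries, while TRV130 and Naloxone overlapped them. The log2 fold change was -0.77 ± 0.24 for Beta-endorphin, -0.68 ± 0.24 for Morphine, -0.58 ± 0.24 for Metamorphine and -0.55 ± 0.24 for Naloxone (SE; edgeR, adjusted p = 0.513, 0.823, 0.595 and 0.655). Control 1 carried much of it: without that library the mean of the 5 compounds moved from -0.53 to -0.21.

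UNC5D, a netrin receptor, had the smallest p among members higher with Metamorphine and with the mean of the 5. It read 3.16, 4.69 and 2.85 CPM in Control and 6.82, 8.43 and 3.69 in Metamorphine, in the same order of codes. In each code the Metamorphine library was above its Control library, and the groups overlapped across codes. The log2 fold change was 0.83 ± 0.37 for Metamorphine and 0.68 ± 0.30 for the mean (edgeR, adjusted p = 0.595 and 0.434). The other smallest p on the higher side belonged to SEMA3A for Morphine (0.48 ± 0.22), EPHA2 for TRV130 (0.57), ROBO2 for Beta-endorphin (0.80) and EFNB3 for Naloxone (0.35 ± 0.16), and on the lower side for TRV130 to NTN1 (-2.10, on 26 reads or fewer per library). None of these passed. EPHA2 passed as lower in code C than in each other code, and TRV130 had no library of code C. Its log2 fold change for TRV130 ran from 0.41 to 0.88 with each library left out. Under the other alternatives it ran from 0.22 to 0.62.

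Within codes, 5 members were above the Control library of their code in all 15 compound libraries: SEMA3C, EFNB2, EPHA6, UNC5C and UNC5D (3.69% of all genes did the same). The differences in log2 CPM ran from 0.12 to 0.92 for SEMA3C, from 0.07 to 1.12 for EFNB2, from 0.14 to 0.80 for UNC5C, from 0.11 to 1.16 for UNC5D and from 0.01 to 2.94 for EPHA6, which had 4 reads in Control 1. EFNA4 and EFNA1 were below in all 15 (2.79% of all genes), by -1.34 to -0.04 and -1.21 to -0.06. The 15 differences share 3 Control libraries. They were largest in code A, where the median for EFNB2 was 0.91 against 0.28 in code B and 0.22 in code C, and all of code A is set against Control 1, the library with the highest immune and epithelial marker sums. The part of those markers in the differences was not tested.

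**Figure D5:**
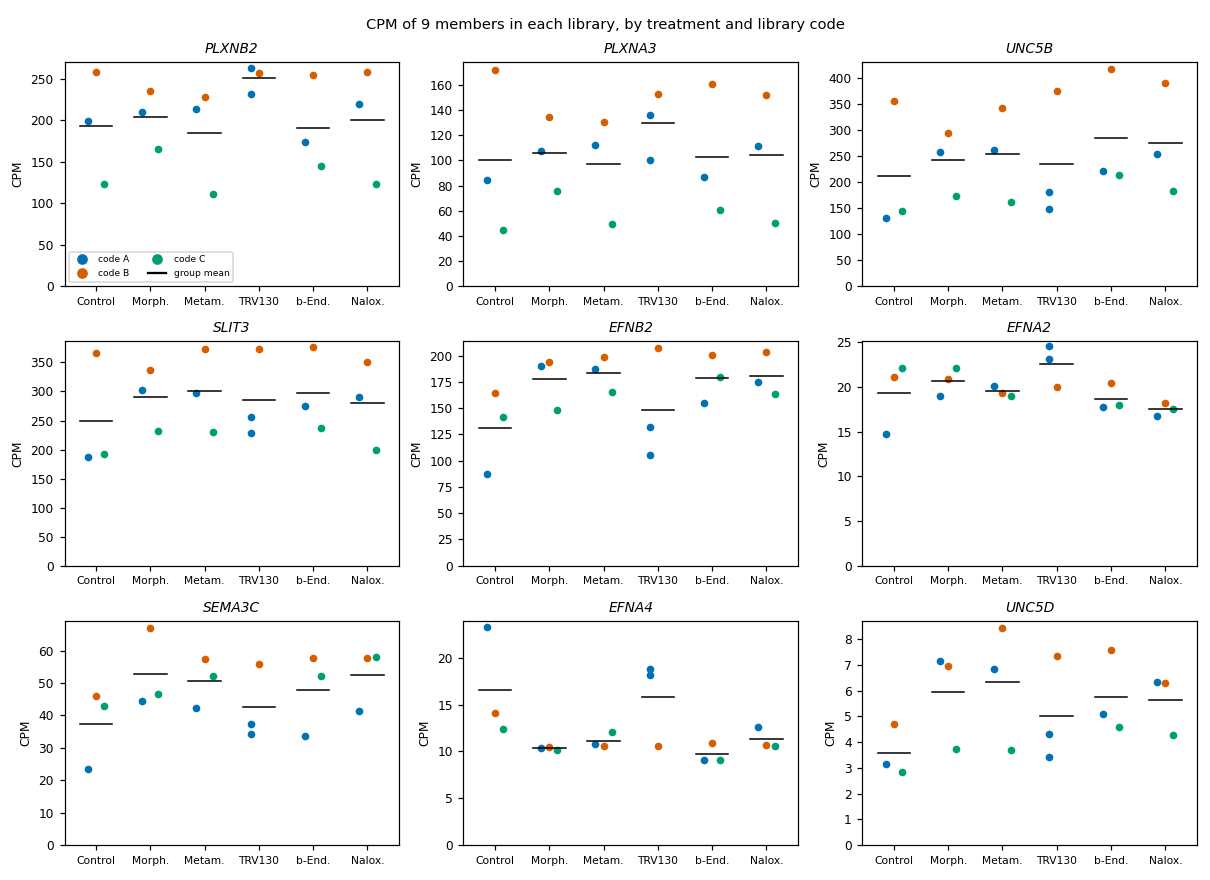
CPM of 9 members in each library by treatment, coloured by library code, with a bar at each group's mean; every axis starts at 0. For PLXNA3 and SLIT3 the points of code B are the highest of every treatment and those of code C the lowest or close to it, while Control 1 is the lowest point of EFNB2 and SEMA3C and the highest of EFNA4.

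Neither pathway list gave a call with a compound: 0 of 21 adhesion molecules and cues and 0 of 56 effectors passed in each comparison in edgeR (for the mean of the 5 compounds, 4 and 10 had an unadjusted p under 0.05, or 19.0% and 17.9%, against 11.4% of all genes). Morphine and metamorphine were given at 193 and 169 nM, so their values are set side by side without a comparison between them.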

How the data were processed

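Total RNA of 18 SH-SY5Y libraries was extracted with TRIzol, treated with DNase I and sequenced unstranded as paired 150 bp reads, per the labels' protocols. The authors deposited raw counts per gene; HISAT2, featureCounts, DESeq2, FastQC and GRCh38 are named in the submitters' processing notes, without versions. All 58735 gene IDs matched GENCODE 29, which gave symbols, positions and exon lengths. CPM (prior count 2 on the log2 scale) and RPKM were computed here from TMM-scaled totals.

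Counts were tested with edgeR 4.0.16 (robust quasi-likelihood) in R 4.3.3 after filterByExpr (minimum count 10), with Benjamini-Hochberg adjustment over 23231 genes and a threshold of 0.05. Compounds were compared with Control by group, and codes with group and code in the model. edgeR's common spread (biological coefficient of variation) came to 0.309 for the first model and 0.182 for the second. The scripts were tested on simulated data first. Alternatives were DESeq2 1.42.0, RLE factors, no filter, replicate number or code as a block, only the groups compared, code alone, and libraries left out. The block with Control 1, or Control 1, Naloxone 1 and Naloxone 2, left out was chosen after seeing the data.

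Named members were those with the smallest p for each compound and direction, the 2 with the highest RPKM of each family, and the 3 with the largest fold changes that passed between codes. Other members named were chosen after their values were seen, such as PLXNA3, SEMA5B, EPHB3, SLIT1, EFNA1, EFNA2 and PLXND1. The members and lists were chosen with earlier results of these data known. Totals per library set the precision: 2906 to 11111 reads for UNC5B, and 0 to 4 for EPHA3. One pathway gene that met the rule is not reported here.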

Additional observations from a re-analysis of the deposited data

Results flagged for a closer look

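Within a code, 11 of the 87 groups examined (29 named members in 3 codes) held a library far from the others. No rate expected by chance is given, as the groups share libraries and mix treatments, and the members were named from these same data. Values are log2 CPM. Control 1 was high for ROBO4 at 0.10, on 22 reads, with the other libraries of code A at -3.15 to -2.02, and low for SEMA3C at 4.55 (5.08 to 5.47) and EPHA2 at 2.02 (2.56 to 2.92). Control 2 stood apart from the rest of code B for EFNA4 at 3.82 (3.41 to 3.45), EFNB2 at 7.37 (7.60 to 7.70) and UNC5C at 7.20 (7.49 to 7.66). Morphine 2 was low for NTN3 at 3.66 (4.24 to 4.37). In code C, Morphine 3 was high for EPHA8 at 5.68 (4.72 to 4.98), SEMA6C at 6.89 (6.23 to 6.39) and EPHA2 at 2.60 (2.12 to 2.21), and Naloxone 3 was low for SLIT2 at 5.04 (5.29 to 5.39). Of the 11 flags, 6 fell on a Control library. Some flagged members, such as EFNA4 and EPHA2, were named for a small p against Control, so this count is not independent of that choice.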

How the results depend on the processing

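For code C against code B, the count of 41 members lay between 38 and 43 with each library left out and between 39 and 43 under the other alternatives. For code B against code A, 25 members became 10 without Control 1, Naloxone 1 and Naloxone 2, 9 without the 3 TRV130 libraries and 10 to 28 with each library left out. For code C against code A, 33 became 19 without Control 1, Naloxone 1 and Naloxone 2, and 23 to 37 with each library left out. DESeq2 gave 30, 38 and 43 members for B against A, C against A and C against B. The left-out fits have fewer libraries, and the shares of all genes that passed in them are not given here. The cause of the changes was not tested.

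The 5 comparisons of single compounds with Control gave 0 members under every alternative run. The mean of the 5 gave 1 without the filter on low counts (EPHA5, -4.89, when 3270 of all genes passed), and 0 to 2 with each library left out, the 2 being SEMA4A and ROBO4 without Control 3. With the replicate block, 0 members passed in each comparison with Control. Deviations of same-numbered libraries correlated over 0.1 in 29 of 45 pairs, and in 27 of 30 with TRV130 left out. As this did not hold in every pair, the numbers are not taken to pair the libraries. Libraries of the same code correlated over 0.1 in 36 of 45 pairs (median r 0.43, against -0.19 between codes). With code as a block, 0 members passed in each comparison with Control. Of 657 values for 26 results on single named members, 630 kept their direction and side of the threshold, 27 lost the call (EPHA6, NTN3, EPHB6, SEMA3A, NTN1 and EFNA3) and 0 reversed. All 27 losses lay in comparisons between codes. The results against Control had not passed in the main fit and had no call to lose, and the 630 include them. The median of the ephrins for code C against code B ran from -0.03 to 0.08, on both sides of 0. Depth limits the low members: the 6 untested ones had 5 to 95 reads in all, and ROBO4 and NTN1 rested on few reads.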
